A study of Drosophila melanogaster with 3 samples.

Results

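Among the 5464 reproducible Jarid2 peaks of whole Drosophila melanogaster embryos, 450 (8.24%) had their summit between genes and far from any start site. They were taken from the list thresholded by irreproducible discovery rate (IDR) on the dm6 build. A peak was included when its summit lay more than 1000 bp from the start of each annotated transcript and inside no annotated gene, with transposable elements left out of the annotation (Ensembl release 115). These 450 are called distal intergenic peaks. The others comprised 3981 peaks with a summit within 1000 bp of a start, called promoter peaks, 962 distal intronic peaks and 71 distal exonic peaks. The rule used position and no measured value.

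Chromatin had been taken from embryos 0 to 24 h old, males and females pooled, of a transgenic fly line that stably expressed Jarid2 with green fluorescent protein (GFP) fused to its C terminus. Chromatin sonicated to 200 to 800 bp was precipitated with an antibody against GFP, and the series had 1 group of 3 biological replicates from the same line. No embryos without GFP were analysed here, so background of the antibody could not be measured, and a whole embryo mixes all its tissues and stages. Each replicate was a list of 30000 peaks ranked by signal, a score on the peak caller's own scale, and read numbers were not in the lists, so depth was unknown.

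Jarid2 is a DNA-binding protein that accompanies Polycomb repressive complex 2 (PRC2), the enzyme that methylates lysine 27 of histone H3. In flies, Polycomb complexes are recruited by Polycomb response elements, stretches of DNA that can lie at promoters or many kilobases from the gene they silence, and that hold sites for factors such as GAGA factor (GAF, the product of Trl), Pho and Combgap. Insulator proteins such as CTCF and Su(Hw) also bind between genes and can separate chromatin domains.

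Windows of 150 bp centred on the summits of 8 distal intergenic peaks show the kinds of sequence involved. Those at comm, chinmo, grn and fd96Ca are among the strongest. Those at slp2 and croc are among the strongest nearest to developmental regulators. Those at Prat2 and soti were chosen after the values were seen because they held letters of the CTCF motif. Each window is the plus strand of the Release 6 reference, whose coordinates are those of dm6. Capitals mark 4 motifs on either strand: GAGAG of GAF (read as CTCTC on the other strand), GCCAT of Pho (ATGGC), AGNNGGCGC of CTCF and GTGTGTGT of Combgap, and where motifs overlap or touch their capitals run together.
comm (chr3L:15729514-15729663): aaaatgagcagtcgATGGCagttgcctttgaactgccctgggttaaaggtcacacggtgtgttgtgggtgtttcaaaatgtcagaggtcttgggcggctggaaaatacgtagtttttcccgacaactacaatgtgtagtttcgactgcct
chinmo (chr2L:1638715-1638864): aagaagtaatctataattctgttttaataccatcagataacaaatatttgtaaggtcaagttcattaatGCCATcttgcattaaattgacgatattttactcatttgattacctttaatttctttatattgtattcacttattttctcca
grn (chr3R:8190998-8191147): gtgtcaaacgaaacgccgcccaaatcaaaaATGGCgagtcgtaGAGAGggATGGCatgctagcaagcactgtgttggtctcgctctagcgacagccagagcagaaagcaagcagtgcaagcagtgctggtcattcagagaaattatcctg
fd96Ca (chr3R:25080546-25080695): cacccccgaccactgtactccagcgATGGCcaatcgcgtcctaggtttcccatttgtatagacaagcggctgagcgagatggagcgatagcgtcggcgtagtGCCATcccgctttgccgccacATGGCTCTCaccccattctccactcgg
slp2 (chr2L:3832420-3832569): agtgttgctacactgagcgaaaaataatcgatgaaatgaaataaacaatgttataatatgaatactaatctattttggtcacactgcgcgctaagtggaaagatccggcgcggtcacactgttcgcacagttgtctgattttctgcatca
croc (chr3L:21479809-21479958): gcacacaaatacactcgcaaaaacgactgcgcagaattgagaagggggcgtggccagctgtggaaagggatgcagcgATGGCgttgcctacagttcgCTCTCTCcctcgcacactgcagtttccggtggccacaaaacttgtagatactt
Prat2 (chr3L:6904103-6904252): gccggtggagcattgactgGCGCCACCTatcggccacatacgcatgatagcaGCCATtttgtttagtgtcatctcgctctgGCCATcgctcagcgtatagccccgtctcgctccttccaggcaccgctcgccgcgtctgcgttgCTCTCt
soti (chr3R:14391337-14391486): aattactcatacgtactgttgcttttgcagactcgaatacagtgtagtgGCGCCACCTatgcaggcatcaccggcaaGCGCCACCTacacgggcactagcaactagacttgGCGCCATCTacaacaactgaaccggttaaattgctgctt
The window at fd96Ca, a forkhead factor gene, held 3 Pho motifs and 1 GAF motif, and that at grn, which encodes a GATA factor, held 2 and 1. The window at slp2, a forkhead segmentation gene, held none of the 4. The soti window held 3 CTCF motifs, 1 of them overlapping a Pho motif.

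Distal intergenic peaks were mostly weak. Their median rank in the reproducible list was 3569.5 (quartiles 2445.75 and 4635.25), against 3681 for distal intronic peaks and 2335 for promoter peaks. Of the 450, 1 stood among the 100 strongest reproducible peaks, 24 among the strongest 1000 and 139 among the strongest 2732. Within the replicates the median rank of these peaks was 3919, 3480 and 3705 in replicates 1, 2 and 3, a mean of 3701 ± 220 (SD, n = 3). Distal intronic peaks averaged 3725 ± 222 there, a difference within the spread between replicates (exact two-sided sign-flip permutation test over the replicates, p = 0.75). Promoter peaks averaged 2252 ± 61.8, and distal intergenic peaks ranked weaker in 3 of 3 replicates, by 1709, 1257 and 1382 ranks (same exact permutation test, p = 0.25). With 3 replicates 0.25 is the smallest p this test can give, so it cannot pass a threshold of 0.05.

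The share of distal intergenic peaks grew down each replicate's list. Of the 1000 strongest peaks, 1.9%, 2.8% and 2.6% were distal intergenic in replicates 1, 2 and 3. Ranks 1001 to 2000 held 5.9% ± 0.794 (SD, n = 3), ranks 2001 to 3000 held 7.97% ± 0.551, ranks 3001 to 4000 held 9.7% ± 0.625 and ranks 4001 to 5000 held 12.9% ± 0.651. Beyond the length of the reproducible list the share went on growing, to 20.2% ± 1.73 at ranks 5001 to 10000 and 24.9% ± 1.49 at ranks 10001 to 15000, and lay between 25.5% and 26.3% in the 3 bins after that. For comparison, 25.01% of the genome's 200 bp windows were distal intergenic by the same rule. Of 6946 distal intergenic peaks in the pooled list of 30000, 6.48% were in the reproducible list, against 9.24% of distal intronic and 36.3% of promoter peaks in that pooled list. The deposited permissive lists contain background regions by design.

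**Figure D1:**
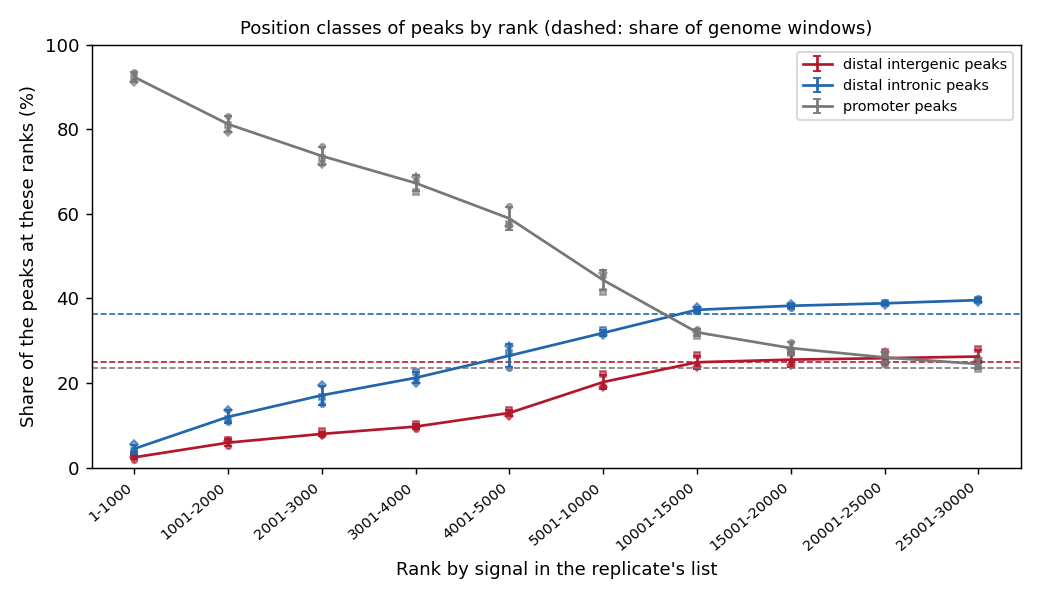
Share of peaks (%, y axis) that were distal intergenic, distal intronic or promoter peaks by rank of signal in the replicate lists (x axis); points are the 3 replicates, lines and bars their mean ± SD, and dashed lines the share of each class among 200 bp windows of the genome. The distal intergenic share was 2.43% on average among the 1000 strongest peaks and close to its genome share of 25.01% beyond rank 10000.

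Counted per length of sequence, distal intergenic DNA held fewer peaks than distal intronic and promoter DNA and more than distal exonic DNA. The 450 peaks lay in 33.4 Mb, a density of 13.5 per Mb (exact 95% Poisson interval 12.2 to 14.8, counting error only), and by the same rule the 5464 strongest peaks of replicates 1, 2 and 3 gave 428, 490 and 466 peaks (461 ± 31.3, SD, n = 3). Densities were 19.9 per Mb (18.6 to 21.2) in distal intronic sequence and 126 per Mb (122 to 130) in promoter sequence. Distal exonic sequence had 3.51 per Mb (2.74 to 4.43). Near genes the density was higher. From 1000 to 2000 bp from the nearest start it was 29.6 per Mb, from 2000 to 5000 bp 16.7, from 5000 to 10000 bp 12.6 and from 10000 to 20000 bp also 12.6. Beyond 20000 bp, in 7.74 Mb of sequence, 12 peaks gave 1.55 per Mb (0.802 to 2.71), and the replicates gave 1.29, 2.07 and 1.94 there. The replicate densities in the first bin were 30.0, 30.2 and 28.3 per Mb, well apart from those beyond 20000 bp. Of windows beyond 20000 bp, 17.0% lay in annotated transposable elements, against 5.33% in the first bin. In how much of the sequence of each bin peaks could be called was not measured.

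**Figure D2:**
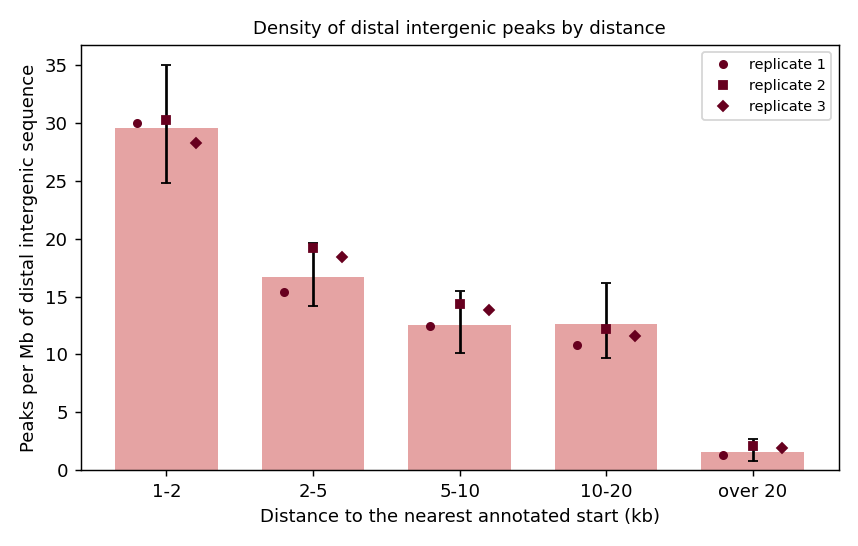
Peaks per Mb of distal intergenic sequence (y axis, from 0) by distance of the summit to the nearest annotated start (x axis, kb); bars are the reproducible list with exact 95% Poisson intervals and points the 3 replicates. The density was 29.6 per Mb in the nearest bin and 1.55 per Mb beyond 20 kb.

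Few of these peaks lay in transposable elements, and the same was true of other distal peaks. Of the 450 summits, 1 lay in an annotated transposable element (0.222%, exact 95% binomial interval 0.00563% to 1.23%), whereas 11.4% of distal intergenic windows did, and the replicates had 2, 1 and 1 such summits. Of the 6496 distal intergenic peaks of the pooled list below the reproducible ones, 0.369% lay in such an element, and of distal intronic peaks 0.104%, against 7.58% of distal intronic windows. Reads in repeats often cannot be placed at 1 position, and how the authors' alignment treated them was not given in the sources used here, so its part in this difference was not tested. Outside transposable elements the density was 15.2 per Mb, and beyond 20000 bp from a start it was 1.87 per Mb. By chromosome the density ran from 8.50 per Mb on X (41 peaks, interval 6.10 to 11.5) through 11.0 on 2R, 11.1 on 3R, 16.7 on 2L and 17.5 on 3L (146 peaks, interval 14.8 to 20.6). The small chromosome 4 had 7 peaks, or 32.3 per Mb (13.0 to 66.5). There 60.1% of distal intergenic windows lay in transposable elements, as did 1 of the 7 summits, the one nearest to fuss. All 7 peaks over the sequence outside elements gave 80.8 per Mb, which overstates the density there. Over the replicates the density was 8.91 ± 1.10 per Mb on X and 18.2 ± 1.47 on 3L (SD, n = 3). Embryos of both sexes were pooled, so X was present in fewer copies than the autosomes, and the part of copy number in the value for X was not tested.

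How often the replicates held a distal intergenic peak varied with its rank. A peak was held by a replicate when a summit among its 5464 strongest lay within 200 bp. All 3 replicates held 248 of the 450 (55.1%, exact 95% binomial interval 50.4% to 59.8%), where 68.2% of all reproducible peaks were so held. Of the rest, 125 were held by 2 replicates, 70 by 1 and 7 by 0. With the reproducible list cut by rank into 4 parts of 1366 peaks, 43 of 43 distal intergenic peaks of the strongest part were held by all 3, 91 of 96 of the next (94.8%), 95 of 138 of the one after (68.8%) and 19 of 173 of the weakest (11.0%). Over all reproducible peaks these shares were 99.0%, 94.7%, 67.1% and 12.2%. Replicates 1, 2 and 3 held 74.7%, 82.9% and 78.9% of the distal intergenic peaks, and their mean of 78.8% ± 4.11 (SD, n = 3) was within the replicate spread of the 78.6% ± 4.66 for distal intronic peaks (exact sign-flip permutation test, p = 1). For promoter peaks the mean was 88.3% ± 2.29, higher in 3 of 3 replicates (exact sign-flip permutation test, p = 0.25, the smallest possible). At any rank among 30000 peaks, 436 of the 450 (96.9%) had a partner in all 3 replicates, close to the 96.3% of all reproducible peaks. Since the reproducible list was made from the same replicates, this support is not independent evidence. The limit of 1000 bp was a matter of definition. The nearest peaks inside it lay 1001 bp from a start at Lim1 (rank 1989) and Sp1 (rank 5276), 1005 bp at CG11726 (rank 4633) and 1011 bp at ph-d (rank 2635) and scb (rank 2990). Just outside it were intergenic peaks 985 bp from a start at Cad89D (rank 5273), 983 bp at RabGGTa (rank 3441), 980 bp at CG43131 (rank 1351), 975 bp at CG9498 (rank 2126) and 971 bp at bab2 (rank 1648).

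The strongest distal intergenic peak lay 1159 bp upstream of comm, which encodes a regulator of the axon guidance receptor Robo at the midline (chr3L:15729401-15729792, signal 1782). It ranked 92, 77 and 117 in replicates 1, 2 and 3, close together and high in each. Another peak, within 1000 bp of a comm start, ranked 8 in the reproducible list. The second strongest lay between Su(z)2 and CG13323 (chr2R:13035023-13035545, signal 1545), 38154 bp from the first gene's start and 11979 bp from the second's, and ranked 132, 157 and 116. The third lay 7600 bp downstream of the start of RYBP, whose product binds ubiquitin and joins some Polycomb complexes (chr2R:22678205-22678600). Its ranks of 519, 428 and 263 spread more widely, and RYBP had no promoter peak. The peak at jing, which encodes a zinc-finger cofactor of PRC2, lay 7616 bp upstream of the gene and ranked 707, 913 and 746. Its nearest coding start on the other side, of Pld, was 248878 bp away.

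A further 7 of the 20 strongest lay nearest to chinmo, grn, fd96Ca, slp2, foxo and zfh2, each of which encodes a transcription factor. This grouping was made after the genes were seen, and how often peaks lay at transcription factor genes in general was not counted. Of the 139 distal intergenic peaks among the 2732 strongest reproducible peaks, 11.5% lay nearest to a listed developmental regulator. Of all 450 the share was 12.9%. A pair of peaks stood upstream of chinmo, which encodes a BTB zinc-finger factor of neuronal temporal identity. At 12468 bp from its start (chr2L:1638616-1638983) one ranked 424, 696 and 195, and at 7765 bp (chr2L:1643358-1643598) the other ranked 562, 631 and 448. At grn the peak lay 9629 bp upstream and ranked 549, 386 and 520. The peak at fd96Ca lay 2063 bp upstream, with ranks of 520, 269 and 774. A peak 4345 bp upstream of slp2, with slp1 6820 bp away on its other side, ranked 1148, 577 and 515. The peak at foxo, a forkhead factor of insulin signalling, stood 3321 bp upstream and its ranks of 801, 737 and 736 lay close together. The peak 3922 bp upstream of zfh2, a zinc-finger homeodomain factor on chromosome 4, ranked 1073, 894 and 964.

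In other cases, picked with the genes in view, the gene with the nearest start was not the better known neighbour. The peak nearest to CG14659, at 4187 bp, had opa, a zinc-finger pair-rule gene, 17329 bp away on its other side, and ranked 560, 479 and 1041. The peak 12107 bp from CG6465 lay 25576 bp from hth, which encodes a homeodomain partner of Hox proteins, and ranked 1115, 703 and 1233. The peak 1151 bp from CG13891 lay 40122 bp from trh, a regulator of tracheal fate, and ranked 890, 719 and 1112. Near Prat2, a gene of purine synthesis, a peak ranked 719, 477 and 1684, a wide spread, with vvl, a POU factor gene, 114020 bp away. These data do not tell which gene, if any, a peak acts on. The other 5 of the 20 lay nearest to CycB (mitotic cyclin B), lgs (a coactivator of Wnt targets), CG31668, CG10651 and CG33798, at ranks from 240 to 1102 over the replicates. On their other side stood blw, dati, COX7AL2, CG17571 and Psc, in that order. All of the 20 were held by each replicate, as were the other distal intergenic peaks among the 1366 strongest.

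**Figure D3:**
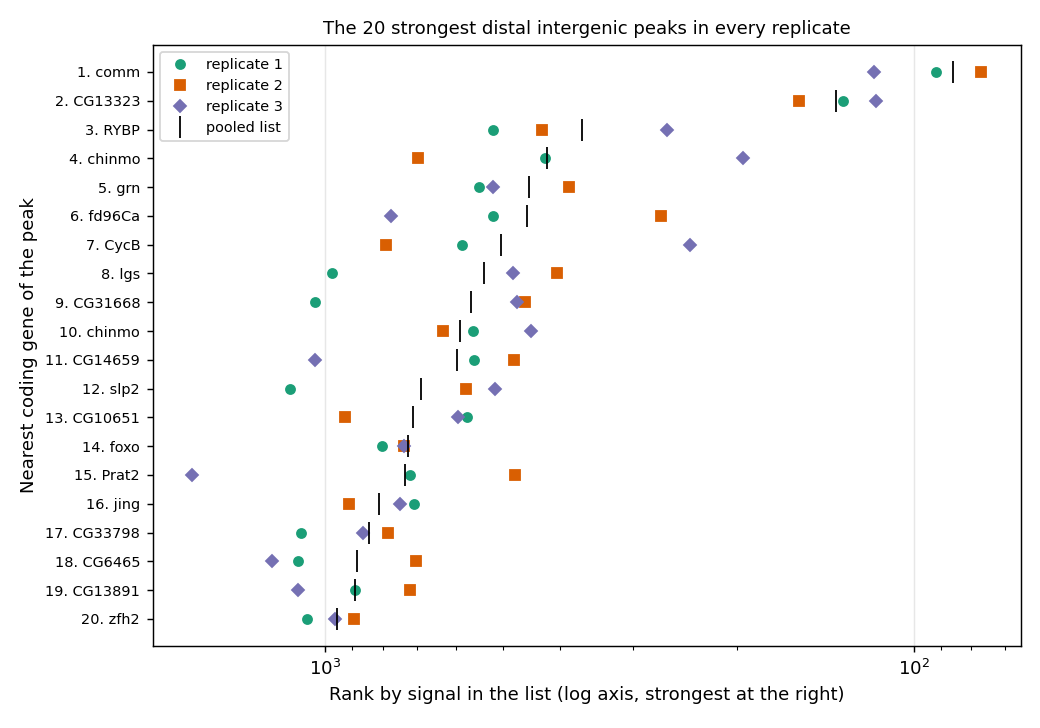
Rank by signal (x axis, log scale, strongest at the right) of the 20 strongest distal intergenic peaks, each named by its nearest coding gene (y axis); coloured points are the 3 replicates and ticks the pooled list. The peak at comm stood between ranks 77 and 117, and the peak near Prat2 spread from 477 to 1684.

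The peaks had 309 different nearest coding genes, 2.22% of all 13945. A single peak belonged to 229 of these genes, 2 peaks to 52 and 3 or more to 28, and the 28 took 117 of the peaks. CG13323 had 11, CG43245 had 9, CG13321 had 8, chinmo 7, and noc and scyl 5 each. Of the 450 peaks, 271 lay upstream of the nearest coding start and 179 downstream, past the end of the gene. The median distance to the nearest coding start was 4951.5 bp (quartiles 2150.5 and 11307.5, highest 44420). For 122 peaks the nearest annotated start of any kind was that of a non-coding RNA and for 8 that of a tRNA.

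Many of these genes also carried a promoter peak. Of the 309, 149 did (48.2%, interval 42.5% to 53.9%), where 25.5% of all coding genes carried such a peak, with a summit no more than 1000 bp from a start. Genes nearest to any distal intergenic window had one in 26.7% of cases, and genes nearest to a distal intronic peak in 75.9%. In the replicates the share was 49.4% ± 2.91, against 26.0% ± 1.37 of all coding genes (SD, n = 3). The promoter peak was usually the stronger: at 119 of the 149 genes it outranked each distal intergenic peak assigned to the gene, and at 30 a distal intergenic peak outranked it. The strongest promoter peak of these genes had a median rank of 815. The 227 peaks at genes with a promoter peak had a median rank of 3443, and the 223 at genes without one 3754.

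Developmental regulators made up the largest of the 9 gene lists in number of peaks. Of 99 listed genes of this kind, mostly homeodomain, forkhead, GATA, T-box and zinc-finger factors, 39 (39.4%) were the nearest coding gene of a distal intergenic peak, where 2.22% of all coding genes were. They were nearest to 58 of the 450 peaks (12.9%, interval 9.93% to 16.3%) and to 3.71% of distal intergenic windows, and replicates gave 13.6% ± 1.71 (SD, n = 3). A listed regulator was the left or right neighbour of 96 peaks (21.3%). Of distal intronic peaks 4.16% had one as nearest gene. The share of distal intronic windows nearest to these genes was not computed, so the peak classes cannot be compared on this. A promoter peak was present at 35 of the 39 genes, and at 83 of all 99 on the list. The median rank of the 58 peaks, 3612.5, was close to that of all 450.

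The peaks of this list with the highest signal were those at grn, slp2 and zfh2, described above. Next, oc, a homeobox gene of the head, had a peak 18177 bp downstream, with Caf1-180 almost as near on the other side, at 18695 bp. That peak ranked 1757, 771 and 1716 in replicates 1, 2 and 3. At bin, a forkhead gene of visceral mesoderm, a peak 1427 bp upstream ranked 1279, 1150 and 1085, and a second summit 1228 bp upstream lay on its shoulder. The peak 3405 bp upstream of croc, a forkhead gene of the head, ranked 1766, 756 and 1666. Replicate 2 placed the oc and croc peaks higher than the other two did. A peak 2550 bp upstream of bap, an NK homeobox gene of visceral mesoderm, had tin, the NK gene of the heart, 7353 bp away on its other side and ranked 2335, 1131 and 2173. The peak at knrl, a nuclear receptor gene of the knirps pair, ranked 1799, 1416 and 1653. Those at Lim1 and B-H2 (homeobox), mid (T-box) and eyg (Pax) were held by all 3 replicates. The peak at disco-r, a zinc-finger gene, ranked 5998 in replicate 1 and 1507 and 2102 in replicates 2 and 3. Some genes had several peaks, 4 at mirr of the Iroquois complex and 3 each at croc, slp2 and tup.

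Other gene groups had fewer peaks. Of 34 listed Polycomb and Trithorax genes, 4 (Psc, Su(z)2, jing and ph-d) were nearest to 9 peaks, 2% of the 450, and to 0.449% of distal intergenic windows. Of the 9, 4 were at Su(z)2, 1 at Psc, 2 at jing and 2 at ph-d. A listed gene of this group was the left or right neighbour of 30 peaks (6.67%), a share not computed over windows. Most of these 30 came from 2 dense stretches described below, with 15 peaks beside Su(z)2 and 11 around Psc. RYBP, described above, was not on the list. Of 42 signalling genes, 9 (21.4%) were nearest to 11 peaks (2.44%, against 0.926% of windows), among them wg and Wnt4, ptc, the FGF ligands pyr and ths with their receptor htl, and upd1. These 11 peaks were weak, with a median rank of 4937, and the replicates gave 1.98% ± 0.688 (SD, n = 3). Of 35 genes of axon guidance and adhesion, 8 (22.9%) were nearest to 12 peaks (2.67%, against 0.917% of windows), among them comm, robo2, caps and the Toll receptor genes Tl, 18w, Tollo and Toll-6. Ribosomal protein genes were nearest to 0 of the 450 peaks, which allows a share of up to 0.816% (exact 95% binomial bound), and to 0.990% of windows, although 69 of the 92 had a promoter peak. Chemosensory receptor and odorant-binding protein genes were nearest to 6 peaks (1.33%, against 2.01% of windows), and none of the 5 genes concerned had a promoter peak. Of all 230 genes on that list, 6 had a promoter peak. Cuticle protein genes were nearest to 4 peaks (0.889%, against 0.363%), and the ecdysone response list and the Enhancer of split complex to 1 each, at Hr38 and E(spl)malpha-BFM.

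Distal intergenic peaks had a neighbour about as near as other peaks did. For 276 of the 450 (61.3%) the next reproducible peak of any kind lay within 5000 bp, against 61.1% of all reproducible peaks, 68.1% of distal intronic and 59.2% of promoter peaks, and 54 (12%) had none within 20000 bp. A stronger summit within 300 bp was present for 31 of them, and whether those marked separate sites was not tested. The densest stretch of 50 kb lay between Su(z)2 and CG13323, where 15 distal intergenic peaks spanned 32055 bp on chromosome arm 2R with no coding gene and no peak of another class among them. All 3 replicates held 8 of the 15, whose ranks in the reproducible list ran from 136 to 5420. Without shoulders 13 remained. The shoulder at rank 1269 was matched to the same peaks of replicates 1 and 2, at ranks 132 and 157, as the peak at rank 136. The next stretch lay around Psc, the paralogue of Su(z)2 that also encodes a subunit of Polycomb repressive complex 1. It held 11 distal intergenic peaks over 35828 bp, or 9 without shoulders. All replicates held 6 of the 11. The strongest lay 2888 bp upstream of CG33798 (rank 842) and 4689 bp downstream of the CG13321 start (rank 966). Promoter peaks of Su(z)2 and Psc themselves ranked 1 and 2 in the reproducible list.

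The third stretch lay upstream of chinmo, where 9 distal intergenic peaks spanned 33744 bp between RFeSP and chinmo on 2L, equal in number to a stretch at CG43245 on 3L and ahead of it in summed signal. Besides those described above, 4 peaks were held by all 3 replicates, at 18408 bp, 16903 bp, 2497 bp and 1737 bp from the chinmo start. The last ranked 1372, 1100 and 869 in replicates 1, 2 and 3. The other 3 peaks completed the stretch, at ranks 4260, 4819 and 5302 of the reproducible list, and they were held by 0, 1 and 2 replicates. The weakest of them lay 1824 bp from the RFeSP start, at the other end of the interval. The chinmo promoter peak ranked 296, above all 9. Without shoulders the stretch held 8 distal intergenic peaks, and 2 reproducible peaks of other classes lay within it.

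**Figure D4:**
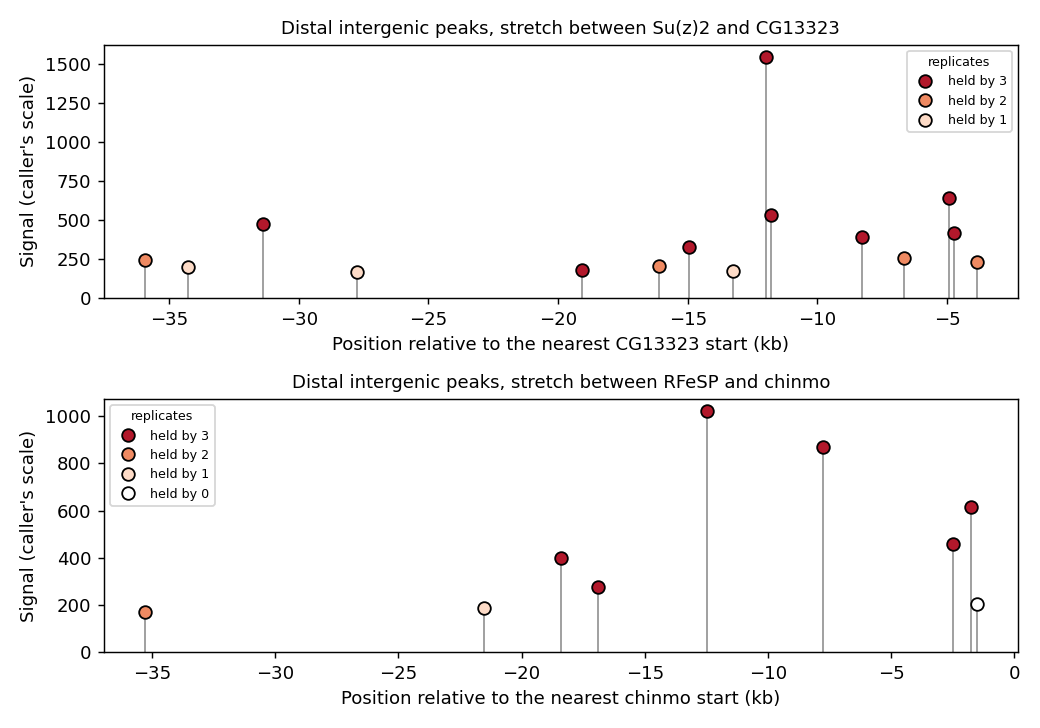
Signal of each distal intergenic peak (y axis, caller's scale) by position relative to the CG13323 start and the chinmo start (x axes, kb; negative values lie toward lower coordinates) in 2 of the 3 densest stretches; the fill gives how many replicates held the peak. The highest peaks were held by 3 replicates, and those held by fewer had ranks from 3267 to 5420.

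Short motif letters were more frequent at the summits than 500 bp away for some of the 24 motifs searched. Windows of 200 bp at the 450 summits were set beside 900 flanking windows centred 500 bp to either side and all 167112 distal intergenic windows. CTCF letters, AGNNGGCGC, were in 32 summit windows (7.11%, interval 4.91% to 9.89%), in 1.11% of flanks and in 1.25% of all windows. In the replicates' own distal intergenic peaks the share was 5.64% ± 0.986 (SD, n = 3). Distal intronic summits had the letters in 3.74% (2.63% to 5.14%) and promoter summits in 3.19%. By distance from the summit, 21 peaks had a match within 50 bp and 12 at 50 to 100 bp, against between 2 and 7 in each 50 bp step from there to 500 bp. The long GAF motif GAGAGAG was in 36 windows (8%, interval 5.67% to 10.9%), in 2.67% of flanks and in 2.16% of all windows, and the replicates gave 7.43% ± 0.380. It was spread more widely around the summit, with 22, 23, 26, 21, 21 and 19 peaks in the 50 bp steps out to 300 bp. The core GAGAG, which the longer motif includes, was in 30.4% of windows, against 20.9% of flanks. Distal intronic summits had GAGAG in 29.5% and promoter summits in 31.8%. For GAGAGAG these shares were 4.99% and 6.88%. Combgap letters, GTGTGTGT, were in 9.33% of windows, 4.56% of flanks and 3.41% of all windows, and showed no maximum at the summit, with 19, 28, 13, 21, 24 and 17 peaks in the same steps. Distal intronic summits had the Combgap letters in 6.03% and promoter summits in 7.91%.

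The Pho core GCCAT stood in 166 summit windows (36.9%, interval 32.4% to 41.5%), close to the 35.3% of all distal intergenic windows and above the 31.0% of flanks. Distal intronic summits had it in 27.3%. The longer Pho letters, GCCATNTT, were in 6.89% of summit windows (interval 4.73% to 9.64%), 3.56% of flanks and 4.54% of all windows. The replicates gave 5.55% ± 0.357 for them (SD, n = 3). Distal intronic summits had these longer letters in 3.53% and promoter summits in 3.92%. Su(Hw) letters, TGCATACTT, were rare at 8 windows (1.78%), with 0.333% in flanks. Homeodomain letters, TAATTA, were less frequent at summits (10.7%) than in flanks (14.8%) or all windows (14.1%). The median GC content of the summit windows was 39.5%, against 41% over all distal intergenic windows, and its part in the motif shares was not tested. Letters were counted without regard to whether the factor was bound, and the motifs named here were picked from the 24 after their shares were seen.

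**Figure D5:**
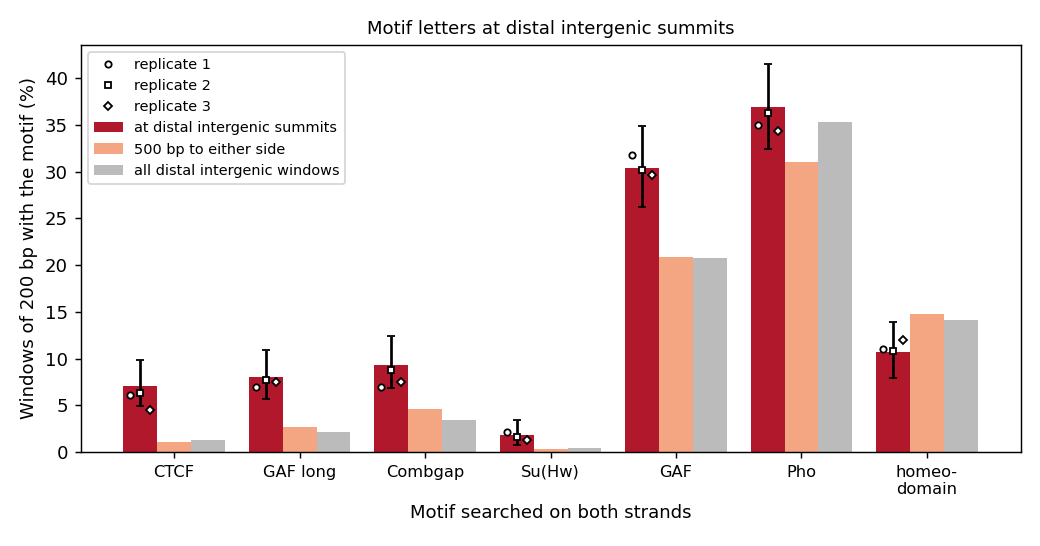
Share of 200 bp windows (%, y axis from 0) with the letters of 7 motifs (x axis) at distal intergenic summits with exact 95% binomial intervals, 500 bp to either side, and over all distal intergenic windows; small points are the distal intergenic peaks of each replicate. The CTCF letters were at 7.11% of summits, 1.11% of flanks and 1.25% of all windows.

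The long GAF motif went with strong peaks. It was in 30 of the 225 stronger distal intergenic peaks (13.3%) and in 6 of the 225 weaker ones (2.67%). When each replicate's own distal intergenic peaks were divided at their median rank, the stronger peaks had it in 10.7%, 11.8% and 9.44% of windows and the weaker ones in 3.27%, 3.67% and 5.58%, with no overlap between them (exact sign-flip permutation test, p = 0.25, the smallest possible with 3 replicates). The 36 peaks with the motif had a median rank of 2733.5, against 3716.5 for the 414 without it, and 11 of the 36 (30.6%) lay nearest to a developmental regulator, against 47 of the 414 (11.4%). CTCF letters divided the peaks less by strength. They were in 18 of the stronger 225 and 14 of the weaker 225, the median rank was 3388.5 with them and 3617.5 without, and 4 of the 32 (12.5%) lay nearest to a developmental regulator, against 12.9% of the other 418. In the replicates the stronger peaks had CTCF letters in 7.22% ± 0.694 and the weaker ones in 4.05% ± 1.28 (SD, n = 3, p = 0.25 by the same exact permutation test). Here too the replicate shares of stronger and weaker peaks did not overlap.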

How the data were processed

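The processed data were peak lists of 3 biological replicates of 1 group. Per the labels, the chromatin of embryos with GFP-tagged Jarid2 was sonicated and precipitated with an antibody against GFP. For the dm6 build, the authors deposited a permissive list of 30000 peaks per replicate and for the pooled replicates, and the IDR-thresholded list, which equalled the 5464 strongest pooled peaks by signal. The deposited signal value is the caller's score, comparable within a list only, and served to rank peaks there. The deposited −log10 q-value was at its maximum for 70.8% of the thresholded peaks and was not used. The aligner and peak caller are not given in the sources used here. The dm3 lists were not used here.

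Starts and gene spans came from Ensembl release 115 (BDGP6.54, without transposable elements) and sequences from the Release 6 assembly. All peaks lay within its chromosome lengths, and 6 chromosomes were used. Summits within 200 bp were matched, the 5464 strongest peaks of each replicate were used, and a summit with a stronger one within 300 bp counted as a shoulder. Genome windows of 200 bp without unknown bases were classified by their centre. Motifs were searched on both strands. Of the symbols in 9 gene lists, 4 matched no coding gene (WntD, Dl, E93 and E(spl)m1). Intervals are exact 95% binomial or Poisson intervals and cover counting error only. Depth was unknown, so its part in the precision was not estimated. The sign-flip permutation test over replicates was exact and two-sided. Peaks are not replicates and were not tested as such, and replicate SDs measure the spread between these samples. The scripts were tested on simulated data. Python 3.11.15, numpy 2.4.6, pandas 2.3.3 and scipy 1.17.1 were used.

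The peaks, gene lists and motifs were chosen with earlier results of these data known. Named were the 20 strongest members, up to 15 at developmental regulators, 5 on either side of the 1000 bp limit and those in the 3 densest stretches. Genes named from list counts or from peaks per gene were picked with their values in view. The alternatives tried were other start distances, annotations, matching distances, list lengths, promoter distances and motif windows, each replicate alone and each left out.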

Additional observations from a re-analysis of the deposited data

How the results depend on the processing

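Of 88 recomputed values 42 stayed within 1 SD of the replicates (counts within 1.5 times) and 46 moved. Density was 15.5 and 10.9 per Mb with limits of 500 and 2000 bp, 4.16 per Mb (139 peaks) among the 2732 strongest reproducible peaks, and 15.2 per Mb outside transposable elements, an alternative added after the data were seen. The share held by all replicates was 46% with summits matched within 100 bp (all peaks 62.0%), 19.6% among the 2732 strongest replicate peaks (38.0%) and 92% among 10928 (91.7%). Genes with a promoter peak made up 40.9% with those 2732 peaks (all coding genes 16.4%), 45.3% within 500 bp (22.9%) and 63.8% within 2000 bp (29.5%), where the peaks themselves can count. A developmental regulator was left or right neighbour of 21.3% of peaks (6.79% of windows).

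In 100 bp windows, by construction fewer, the shares were CTCF 4% (flanks 0.556%), GAGAG 16.4% (9.78%), GAGAGAG 4.89% (1.22%), Combgap 4.22% (1.89%), Pho 21.6% (16.9%), Su(Hw) 0.889% (0.111%) and homeodomain 6.44% (7%). In 300 bp windows they were GAGAG 44% (30.9%), GAGAGAG 11.3% (5.22%), Combgap 11.6% (6.67%), Pho 48.9% (42.8%) and homeodomain 15.6% (20.9%).

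With 1 replicate left out, peaks had to be held by both others, which removes weak ones. Then 287 to 293 peaks remained, the density was 8.59 to 8.77 per Mb and the median rank 2789 to 2806. The share of genes with a promoter peak was 45.2% to 48.1% (all coding genes 20.6% to 21.4%). The share at developmental regulators was 11.9% to 13.2% (3.71% of windows). Shares with CTCF letters were 6.57% to 8.01%, GAGAG 32.4% to 33.8%, GAGAGAG 9.34% to 10.6%, Combgap 7.85% to 9.06%, Pho 36.6% to 38.6%, Su(Hw) 2.05% to 2.44% and homeodomain 10.1% to 11.4%. Without the densest stretch, also added after the data were seen, 435 peaks remained, 55.2% of them held by all replicates.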
